A study of Homo sapiens with 2 samples.

Results

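Integrator, Mediator and RNA polymerase II are multi-subunit complexes of the nucleus that act together in the making of RNA, and the messenger RNA levels of their subunit genes are described here in PC3 cells, a human prostate cancer line. Members were the protein-coding genes whose symbols start with INTS, MED or POLR2 followed by a digit or letter, together with CDK8, CDK19 and CCNC of the Mediator kinase module. Pseudogenes and hyphenated symbols were left out. This gave 65 of the 58174 genes in the deposited table: 16 of Integrator, 34 that fall with Mediator and 15 of RNA polymerase II. There was 1 library from cells given a control siRNA (small interfering RNA) by transfection and 1 library from cells given an siRNA against POH1, the proteasome deubiquitinase encoded by PSMD14, in the same line with no other treatment named. The sources used here do not give the dose, the time after transfection or the siRNA sequence. The set was selected on the differences of the INTS genes in this same comparison, so every difference below is a description of these 2 libraries, without a replicate, an error or a test.

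RNA polymerase II transcribes protein-coding genes and most small nuclear RNA (snRNA) genes. Mediator bridges DNA-bound activators and the polymerase at promoters, and a kinase module built around CDK8 or CDK19 binds it reversibly. Integrator associates with the polymerase soon after initiation, where its endonuclease INTS11 cuts nascent RNA, including the 3′ ends of snRNAs, and where a bound protein phosphatase, PP2A, removes phosphates from the polymerase.

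Values are TPM, a transcript abundance scaled to the same total in each library and corrected for transcript length. A difference is log2(TPM + 1) with the POH1 siRNA less that with the control siRNA, and folds are ratios of TPM. Differences were computed for the 15008 genes whose mean reached 1 TPM, called tested genes below, and a gene was called higher or lower at 1.5-fold, a difference of 0.58 or more in size. Calls thus rest on TPM + 1, and a gene whose ratio of TPM alone passes 1.5 can still count as within 1.5-fold. Read depth is unknown because TPM does not keep it. The targeted gene PSMD14 was at 50.9 TPM with the control siRNA and 35.1 TPM with the POH1 siRNA, 69.0% of the control. All 5 epithelial markers looked at were high in both libraries, with KRT19 at 1499 and 1734 TPM and EPCAM at 124 and 141 TPM. The luminal prostate markers KLK2 and KLK3 were listed at 0 in both. Of 7 markers of other cell types, COL1A1 (30.9 and 47.8 TPM) and PECAM1 (4.90 and 3.88 TPM) were measured. In bulk RNA, fewer cells with a transcript and less of it per cell cannot be told apart.

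Of the 65 members, 63 reached a mean of 1 TPM. MED12L was at 0.0218 TPM with the control siRNA and 0.0485 TPM with the POH1 siRNA. MEDAG was listed at 0 in both, and although its symbol fits the rule it is not known as a Mediator subunit. Among the 63, 3 were higher and 8 were lower in the POH1 siRNA library, against 10.2% of all tested genes higher and 8.88% lower. As shares of the measured members these are 4.76% and 12.7%. Scaling the libraries to a median log2 ratio of 0 gave 1 higher and 4 lower in Integrator, 0 and 6 in Mediator and 0 and 3 in RNA polymerase II, where the deposited values gave 2 and 3, 1 and 2, and 0 and 3. Over all tested genes that scaling called 6.4% higher and 12.3% lower, so lower calls were more frequent there too. The median difference was 0.42 in Integrator, 0.11 in Mediator and 0.02 in RNA polymerase II, and 0.12 over all tested genes.

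The Integrator median did not stand for a common move of its subunits. Of its 16 members, 9 lay between 0.41 and 0.96 and 7 lay between -1.34 and -0.14. The interval between these runs was picked from these same values as the widest gap among the Integrator differences. It therefore held no Integrator member by construction. It held 51.3% of all tested genes, 18 of 32 Mediator members and 11 of 15 RNA polymerase II members, and no conclusion is drawn from these counts. The mean over Integrator was 0.02, so that median and mean differ, while the SD among its members was 0.67 against 0.40 in Mediator, 0.41 in RNA polymerase II and 0.52 over all tested genes. After adjustment for GC content, described further below, 7 Integrator members fell inside that interval.

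**Figure D1:**
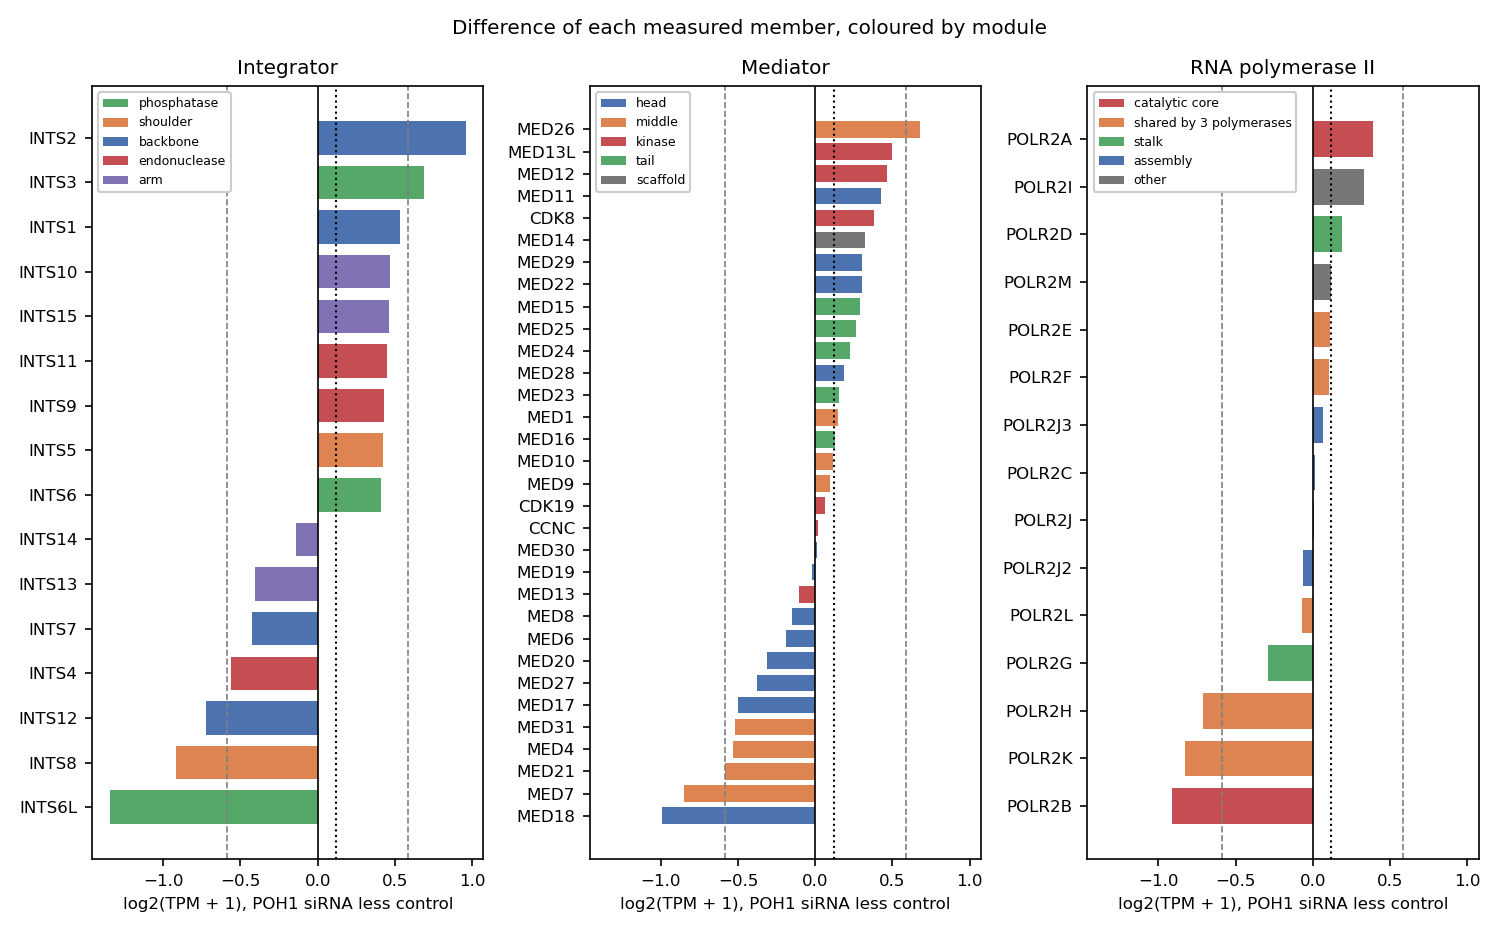
Difference in log2(TPM + 1), POH1 siRNA less control, for the 63 measured members, 1 bar per gene coloured by module; the dotted line is the median of all tested genes (0.12) and the dashed lines mark 1.5-fold. Integrator has 9 members at 0.41 or above and 7 at -0.14 or below, on either side of its widest gap, which was picked from these values. Most Mediator and RNA polymerase II bars lie inside the dashed lines.

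The backbone of Integrator showed both directions. INTS2, a backbone subunit, was at 1.02 TPM with the control siRNA and 2.93 TPM with the POH1 siRNA, 2.86-fold higher, with a difference of 0.96. It was the least abundant Integrator transcript in the control library, so its value rests on little RNA. INTS1, the largest backbone protein, was at 60.3 and 87.7 TPM, and its difference of 0.53 lay just inside the 1.5-fold limit. INTS7 was at 9.55 and 6.86 TPM (difference -0.42). INTS12, a PHD finger protein that binds INTS1, was at 21.4 and 12.6 TPM, 1.70-fold lower. The ratio of INTS1 to INTS12 transcripts was 2.81 in the control library and 6.96 in the POH1 siRNA library.

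The phosphatase module held the widest range within Integrator. INTS6 and INTS6L are paralogues, and INTS6 helps bring PP2A to the complex. INTS6L was at 4.68 TPM with the control siRNA and 1.24 TPM with the POH1 siRNA, 3.79-fold lower, the lowest difference of all 63 members (-1.34). INTS6 was at 2.13 and 3.16 TPM (0.41). INTS6 made up 31.3% of the summed transcripts of the pair in the control library and 71.9% in the POH1 siRNA library, and the sum itself was 6.80 and 4.40 TPM. Both genes were below 5 TPM in both libraries, so these shares rest on little RNA. With 0.1 or 5 added to TPM in place of 1, INTS6L differed by -1.84 or -0.63 and INTS6 by 0.55 or 0.20. INTS3, which also belongs to the single-stranded DNA sensor complex SOSS, was at 82.0 and 133 TPM, 1.62-fold higher. It shares exon sequence on the same strand with SLC27A3 (10.8 and 14.3 TPM), and the sum of the genes differed by 0.66.

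In the endonuclease module, INTS11, the cutting enzyme, was the most abundant Integrator transcript, at 151 TPM with the control siRNA and 205 TPM with the POH1 siRNA (0.45). Its catalytically inactive partner INTS9 was at 15.1 and 20.8 TPM (0.43). The ratio of INTS11 to INTS9 was 9.94 in the control library and 9.90 in the POH1 siRNA library, nearly the same value. INTS4, which scaffolds the pair, was at 57.1 and 38.4 TPM (-0.56), and the ratio of INTS11 to INTS4 was 2.64 and 5.35. INTS4 has the pseudogene copies INTS4P1 and INTS4P2, and the sum with both differed by -0.54.

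In the shoulder, which contacts PP2A, INTS5 was at 28.5 TPM with the control siRNA and 38.6 TPM with the POH1 siRNA (0.42), whereas INTS8 was at 23.7 and 12.1 TPM, 1.96-fold lower. The arm subunits were split as well. INTS10 was at 22.4 and 31.4 TPM and INTS15 at 15.8 and 22.1 TPM, while INTS13 was at 11.7 and 8.60 TPM and INTS14 at 22.3 and 20.1 TPM. None of the 4 arm genes reached 1.5-fold, and 80.9% of all tested genes did not either. Every module of Integrator therefore held members above 0 and members below 0.

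**Figure D2:**
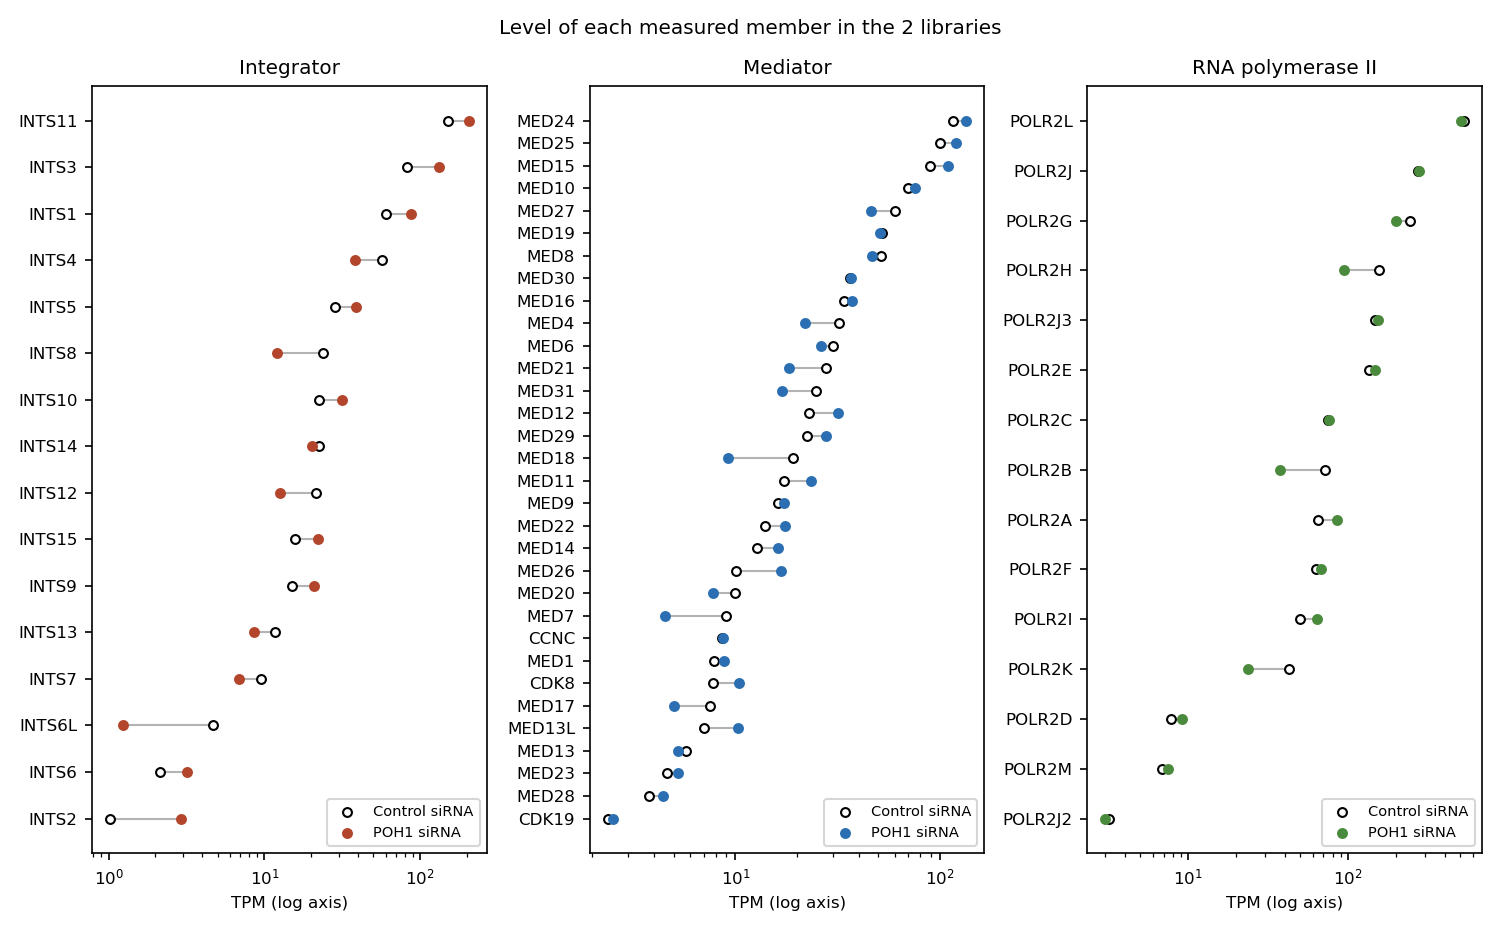
TPM of each measured member on a log axis, 1 row per gene ordered by the control library; open circles are the control siRNA library and filled circles the POH1 siRNA library. The longest lines belong to INTS2 and INTS6L, both under 5 TPM, while most RNA polymerase II genes have nearly overlapping circles.

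Of 32 measured Mediator members, 29 lay within 1.5-fold, 1 was higher and 2 were lower, where 80.9% of all tested genes lay within 1.5-fold, 10.2% were higher and 8.88% lower. Levels in the control library ran from 2.38 TPM for CDK19 and 3.79 TPM for MED28 to 99.4 TPM for MED25 and 115 TPM for MED24. In the POH1 siRNA library these genes were at 2.53, 4.45, 119 and 135 TPM.

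The middle module, which moves when the polymerase binds, held values on both sides. MED26, a subunit present in only part of Mediator that links it to elongation factors, was at 10.1 TPM with the control siRNA and 16.7 TPM with the POH1 siRNA, 1.66-fold higher. It shares exons with another protein-coding gene model, ENSG00000268790, at 0.356 and 3.94 TPM. MED7, which pairs with MED21 to form the hinge of the complex, was at 8.96 and 4.52 TPM, 1.98-fold lower. MED21 was at 27.8 and 18.2 TPM, and its difference of -0.583 missed the limit of 0.585 in size narrowly. MED4 (32.1 and 21.8 TPM) and MED31 (24.8 and 17.0 TPM) lay close behind at -0.53 and -0.52. MED1, which binds nuclear receptors, was at 7.87 and 8.84 TPM, MED9 at 16.1 and 17.3 TPM and MED10 at 69.7 and 75.6 TPM.

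In the head module, which contacts the polymerase and its general factors, 7 of 12 members were below 0 and 1 was called lower (8.33%). Over all tested genes, 5826 of 15008 were below 0 and 8.88% were called lower. The head gene called lower was MED18, which forms the movable jaw with MED20 and MED8. MED18 was at 19.2 TPM with the control siRNA and 9.18 TPM with the POH1 siRNA, 2.09-fold lower. MED20 was at 9.90 and 7.76 TPM and MED8 at 51.5 and 46.3 TPM. MED17, the central head subunit, was at 7.48 and 4.998 TPM (-0.50). MED11 had the highest difference in the head, 0.42, at 17.2 and 23.4 TPM. The remaining head genes, MED6, MED19, MED22, MED27, MED28, MED29 and MED30, lay between -0.38 and 0.30.

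All 5 tail genes, whose proteins receive activators, lay between 0.13 and 0.29. MED15 was at 89.0 TPM with the control siRNA and 109 TPM with the POH1 siRNA, and MED16 at 33.9 and 37.2 TPM. The scaffold MED14, which connects all parts of core Mediator, was at 12.7 and 16.2 TPM (0.32).

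No measured gene of the kinase module reached 1.5-fold, and 80.9% of all tested genes did not either. CDK8 was at 7.81 TPM with the control siRNA and 10.5 TPM with the POH1 siRNA (0.38), and its paralogue CDK19 at 2.38 and 2.53 TPM (0.06). CDK8 made up 76.7% of their sum in the control library and 80.5% in the POH1 siRNA library. CCNC, the cyclin that activates both, was at 8.61 and 8.74 TPM. MED12, the activator of the kinase, was at 22.8 and 31.9 TPM (0.46) and was nearly all of the MED12 and MED12L transcripts (99.9% and 99.8%). Of the subunits that tether the kinase to core Mediator, MED13 was at 5.71 and 5.25 TPM and MED13L at 7.01 and 10.3 TPM.

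RNA polymerase II transcripts were the most abundant of the 3 complexes, with a median of 71.3 TPM in the control library against 21.9 TPM in Integrator and 18.2 TPM in Mediator. None of the 15 genes was higher (10.2% of all tested genes), 3 were lower (8.88% of all tested genes) and 12 lay within 1.5-fold. The catalytic subunits differed. POLR2A, the largest subunit with the repeated C-terminal tail, was at 64.5 TPM with the control siRNA and 84.9 TPM with the POH1 siRNA (0.39), the highest difference in the complex. POLR2B, which forms the other side of the active centre, was at 71.3 and 37.4 TPM, 1.91-fold lower and the lowest difference in the complex (-0.91). The ratio of POLR2A to POLR2B transcripts was 0.905 in the control library and 2.27 in the POH1 siRNA library.

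The other lower genes encode subunits that RNA polymerases I and III also contain. POLR2H was at 155 TPM with the control siRNA and 94.5 TPM with the POH1 siRNA, 1.64-fold lower, and POLR2K at 42.9 and 23.7 TPM, 1.81-fold lower. The 3 further shared subunits lay near 0, with POLR2E at 135 and 146 TPM, POLR2F at 63.0 and 67.8 TPM and POLR2L, the most abundant member of all, at 529.8 and 506 TPM. POLR2G of the stalk was at 243 and 199 TPM and its partner POLR2D at 7.83 and 9.07 TPM. POLR2I, which supports proofreading by the polymerase, was at 50.2 and 63.5 TPM, and POLR2C of the assembly platform at 75.2 and 76.1 TPM.

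POLR2J, the partner of POLR2C, has near-identical copies, and counts can be split between them. POLR2J was at 275 TPM with the control siRNA and 276 TPM with the POH1 siRNA, POLR2J3 at 147 and 154 TPM and POLR2J2 at 3.21 and 3.03 TPM. Their sum was 425 and 433 TPM, a difference of 0.03 for the family. POLR2M, a regulator that makes the polymerase depend on Mediator, was at 6.83 and 7.51 TPM. It shares exons with GCOM1, at 4.39 and 0.948 TPM, and the sum differed by -0.37, on the other side of 0 from POLR2M alone (0.12).

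The differences tended to be higher where the transcripts had a higher GC content. Over all tested genes with a GC value, difference and GC content had a Spearman correlation of 0.42, and over genes averaging at least 5 TPM it was 0.46. Across the measured members, at a mean of 1 TPM or more, it was 0.46 in Integrator (n = 16), 0.34 in Mediator (n = 32) and 0.39 in RNA polymerase II (n = 15). The genes share the same 2 libraries and are not independent. The 9 Integrator members above 0 had a median GC of 52.3%, and for the 7 below 0 it was 42.3%. Of the 8 lower members in the 3 complexes, POLR2K had the lowest GC content (36.6%) and POLR2H the highest (49.9%). INTS2 went the other way from this trend, higher with a GC content of 39.8%. MED18 had a GC content of 49.5%, and genes above 45% and up to 50% had a median difference near 0 (0.00030).

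Subtracting the running median of genes with like GC content, then adding back the overall median, left Integrator with 4 higher and 1 lower member, Mediator with 3 and 1, and RNA polymerase II with 0 and 1, against 12.6% and 5.18% of all tested genes. The adjusted values were 1.37 for INTS2, 0.78 for INTS6, 0.74 for INTS10 and 0.68 for INTS3, and -0.96 for INTS6L. In Mediator they were 0.87 for MED13L, 0.72 for CDK8 and 0.68 for MED14, and -0.89 for MED18. In RNA polymerase II, POLR2H remained past the limit at -0.63 and POLR2B was at -0.56. The medians were then 0.28 in Integrator, 0.14 in Mediator and -0.07 in RNA polymerase II, with 0.15 over all tested genes, so Integrator lay above the other complexes by 0.14 and 0.35 in place of 0.31 and 0.40. The part of GC content in these differences was not tested further.

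**Figure D3:**
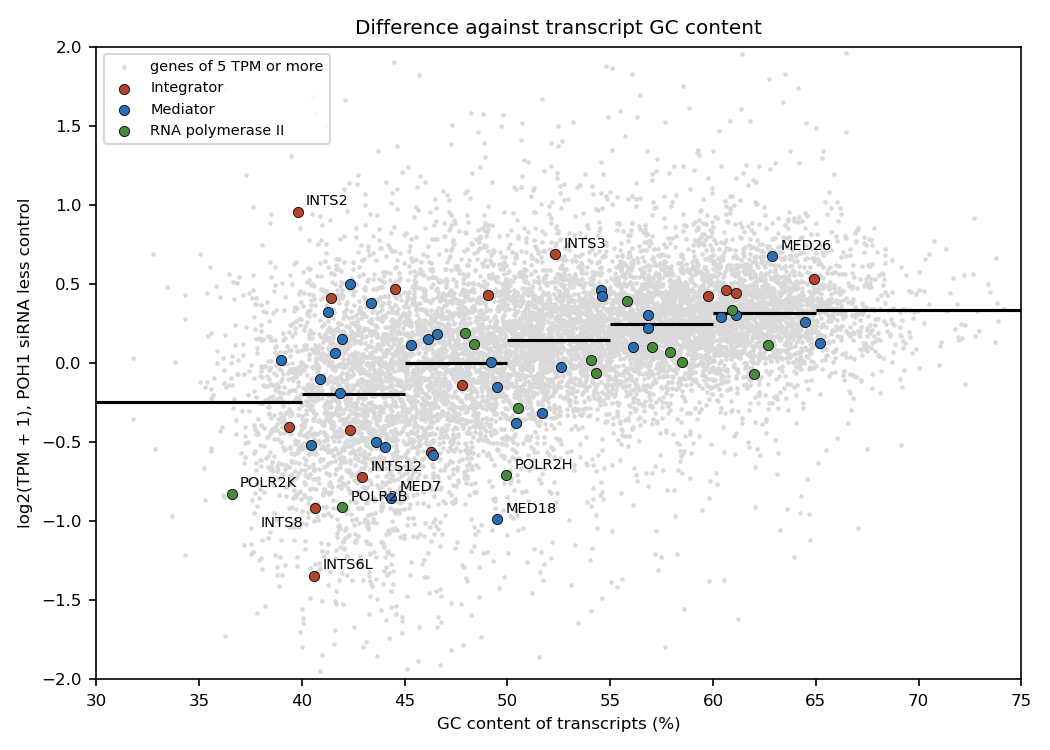
Difference in log2(TPM + 1) against the median GC content of a gene's annotated transcripts; grey points are genes of 5 TPM or more, black lines their medians in GC classes, and coloured points the 63 measured members. The vertical axis stops at 2 in size, which leaves some grey points outside; the 8 lower members sit below 50% GC, and INTS2 lies far above the line of its class.

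The start regions of the members at the ends of each complex are shown for reference, since these genes lay farthest apart within 1 complex. They are the 250 bases before the RefSeq start of the gene with the highest and of the gene with the lowest difference in each complex among the 46 measured members whose sequence was matched by symbol, from RefSeq, build GRCh38.p14, written 5′ to 3′ along the gene. Capitals mark, on either strand, GGGCGG (the GC box of SP and KLF factors), CCAAT (the box bound by NF-Y), CCGGAAG (an ETS factor site), TGACGTCA (a site of CREB and ATF factors) and TATAAA (the TATA box). Neighbouring matches can run into each other, as at the GC boxes of MED26.
INTS2 (chr17:61927983-61928232, minus strand): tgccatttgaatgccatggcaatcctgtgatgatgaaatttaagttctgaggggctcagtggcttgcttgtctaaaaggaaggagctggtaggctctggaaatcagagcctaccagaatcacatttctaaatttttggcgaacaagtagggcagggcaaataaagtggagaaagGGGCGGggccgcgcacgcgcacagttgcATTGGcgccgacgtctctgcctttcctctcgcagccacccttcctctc
INTS6L (chrX:135520410-135520659, plus strand): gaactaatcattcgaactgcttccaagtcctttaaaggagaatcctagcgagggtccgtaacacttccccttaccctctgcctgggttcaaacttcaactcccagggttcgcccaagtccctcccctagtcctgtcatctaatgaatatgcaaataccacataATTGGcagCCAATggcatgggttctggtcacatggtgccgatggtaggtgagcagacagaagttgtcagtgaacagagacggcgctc
MED26 (chr19:16628205-16628454, minus strand): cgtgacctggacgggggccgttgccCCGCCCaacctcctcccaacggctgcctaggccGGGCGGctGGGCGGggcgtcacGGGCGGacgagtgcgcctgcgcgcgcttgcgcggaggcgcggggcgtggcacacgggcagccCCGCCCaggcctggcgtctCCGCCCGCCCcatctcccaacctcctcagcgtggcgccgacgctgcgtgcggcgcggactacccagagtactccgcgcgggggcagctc
MED18 (chr1:28328790-28329039, plus strand): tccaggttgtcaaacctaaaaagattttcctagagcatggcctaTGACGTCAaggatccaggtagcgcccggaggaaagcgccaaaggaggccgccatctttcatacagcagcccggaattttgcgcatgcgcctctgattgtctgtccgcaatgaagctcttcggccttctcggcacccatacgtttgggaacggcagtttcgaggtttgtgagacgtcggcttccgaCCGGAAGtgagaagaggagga
POLR2A (chr17:7484116-7484365, plus strand): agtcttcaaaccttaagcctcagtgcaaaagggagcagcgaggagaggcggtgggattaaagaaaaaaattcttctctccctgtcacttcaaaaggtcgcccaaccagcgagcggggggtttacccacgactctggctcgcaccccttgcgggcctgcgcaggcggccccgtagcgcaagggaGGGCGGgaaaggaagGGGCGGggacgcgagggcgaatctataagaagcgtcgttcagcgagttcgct
POLR2B (chr4:56978646-56978895, plus strand): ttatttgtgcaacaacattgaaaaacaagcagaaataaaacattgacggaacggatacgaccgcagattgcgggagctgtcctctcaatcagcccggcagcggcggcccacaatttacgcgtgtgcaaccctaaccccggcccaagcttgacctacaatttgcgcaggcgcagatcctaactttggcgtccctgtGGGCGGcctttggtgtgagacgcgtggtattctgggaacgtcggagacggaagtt

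MED26 held 7 GC boxes in a window of 78.0% GC, and POLR2A 2 in a window of 59.6% GC. INTS2 and POLR2B held 1 each. INTS6L held none, but 2 CCAAT boxes on opposite strands. MED18 was the one of these windows with an ETS site and the CREB and ATF site together. Over the 46 members, 32 windows (69.6%) held a GC box against 42.3% of 27305 windows of all genes in the table, noncoding ones included. An ETS site was in 12 windows (26.1%) against 8.82%, a CCAAT box in 16 (34.8%) against 33.0%, and a TATA box in 3 (6.52%) against 11.1%. Of the 3 higher members, 3 held a GC box, and of the 6 lower members with a sequence, 3 did. A match describes letters in these windows and was not linked to binding.

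Some members start back to back with another measured gene, within 1000 bases on the opposite strand. In 7 of 16 such pairs both genes lay on the same side of 0. Of 9 members below 0 in these pairs, 1 had a partner below 0. Of 7 members above 0, 6 had a partner above 0. Over all tested genes, 9182 of 15008 lay above 0. POLR2H was lower while its neighbour CLCN2 was at 12.0 TPM with the control siRNA and 16.8 TPM with the POH1 siRNA (0.46). MED20 lay at -0.32 while BYSL was at 34.7 and 69.8 TPM (0.99). INTS13 and FGFR1OP2 were the only pair with both genes below 0, with FGFR1OP2 at 31.7 and 14.9 TPM (-1.04).

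The use of strand is not stated, and without it reads from overlapping genes of opposite orientation are not separable. Of the 63 measured members, 16 overlap exons of another measured gene in this way, 3 of them among the lower members; genes outside the complexes were not examined for it. INTS8 overlaps CCNE2 (0.838 and 1.72 TPM), INTS12 overlaps GSTCD (2.37 and 2.55 TPM) and POLR2B overlaps NOA1 (22.0 and 22.5 TPM). In each, the overlapping gene was not lower in the POH1 siRNA library, and the summed levels differed by -0.79, -0.62 and -0.63. CCNE2 and GSTCD were far below INTS8 and INTS12, so those sums mostly repeat the member. A sum of TPM does not reassign reads, and the part of overlap in these values was not tested.

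None of 8 known partners of Integrator was called higher, where 10.2% of all tested genes were. Of these genes, 2 were lower, 6 lay within 1.5-fold, and the median was -0.18, against 8.88% of all tested genes lower. After GC adjustment 1 was lower, NABP2, against 5.18% of all tested genes, and the median was 0.05, on the other side of 0. NABP2, the single-stranded DNA binding subunit of SOSS beside INTS3, was at 108 TPM with the control siRNA and 52.0 TPM with the POH1 siRNA, 2.08-fold lower. PPP2CA, a catalytic subunit of PP2A, was at 33.3 and 20.4 TPM, 1.63-fold lower (-0.25 after GC adjustment), and PPP2CB, the other catalytic gene, at 34.3 and 24.6 TPM. PPP2R1A, the PP2A scaffold, was at 148 and 173 TPM, and BRAT1, an Integrator assembly partner, at 47.0 and 60.9 TPM.

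Among general transcription factors, 1 of 32 measured genes was higher and 7 were lower (21.9%), with a median of -0.02. Over all tested genes, 10.2% were higher and 8.88% lower. After GC adjustment 3 were higher and 5 lower, against 12.6% and 5.18% of all tested genes, and the median was 0.15. GTF2A1, the large subunit of TFIIA, was at 1.23 TPM with the control siRNA and 5.13 TPM with the POH1 siRNA. TFIID subunits TAF7 (37.4 and 17.1 TPM) and TAF9 (51.9 and 25.6 TPM) were lower. So were GTF2H5 (2.56 and 0.697 TPM) and CDK7 (26.7 and 12.7 TPM) of TFIIH, and GTF2E2 of TFIIE (36.3 and 17.8 TPM).

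Of 38 genes for pausing and elongation, 3 were higher and 4 lower (7.89% and 10.5%), with a median of 0.21. These shares lay near the 10.2% and 8.88% of all tested genes. After GC adjustment 7 were higher and 1 lower, against 12.6% and 5.18% of all tested genes. CCNT2, a cyclin of the elongation kinase P-TEFb, was at 1.14 TPM with the control siRNA and 3.72 TPM with the POH1 siRNA. AFF1, a scaffold of the super elongation complex, was at 1.41 and 3.09 TPM. LARP7, which holds P-TEFb inactive on the RNA 7SK, was at 6.98 and 3.01 TPM, TCEA1, the factor that restarts backtracked polymerase, at 6.69 and 2.86 TPM, and LEO1 of the PAF complex at 30.6 and 16.2 TPM.

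RNA polymerases I and III, which share 5 subunits with polymerase II, had 3 higher and 1 lower gene among 19 of their own. These were 15.8% and 5.26%, against 10.2% and 8.88% of all tested genes, and the median was 0.10. POLR3D was at 12.0 TPM with the control siRNA and 27.6 TPM with the POH1 siRNA, 2.30-fold higher, and CRCP at 3.44 and 6.32 TPM. POLR3G, the alternative form of POLR3GL, was at 12.4 and 7.70 TPM. Of 16 measured genes for polymerase II assembly and its tail phosphatases, 2 were higher and 1 lower (median 0.21). These were 12.5% and 6.25%, beside the same 10.2% and 8.88% of all tested genes. GPN1, a GTPase needed for nuclear import of the polymerase, was at 61.8 and 25.2 TPM, 2.45-fold lower. RPRD2 (11.6 and 23.5 TPM) and RPRD1B (7.29 and 13.0 TPM), which bind the tail of the polymerase, were higher.

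In messenger RNA 3′ processing, none of 19 genes was higher and 2 were lower (10.5%), with a median of 0.17. Over all tested genes, 10.2% were higher and 8.88% lower. After GC adjustment 3 were higher and 1 lower, against 12.6% and 5.18% of all tested genes. CPSF3, the endonuclease related to INTS11, was at 28.8 TPM with the control siRNA and 13.9 TPM with the POH1 siRNA, 2.08-fold lower. CSTF3 was at 18.8 and 11.0 TPM. INTS11 and CPSF3, related nucleases with different substrates, thus lay on opposite sides of 0. In the snRNA promoter complex, 1 of 5 genes was higher, against 10.2% of all tested genes. It was SNAPC2, at 43.9 and 82.6 TPM. The median of these 5 genes was -0.09, and 0.29 after GC adjustment.

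**Figure D4:**
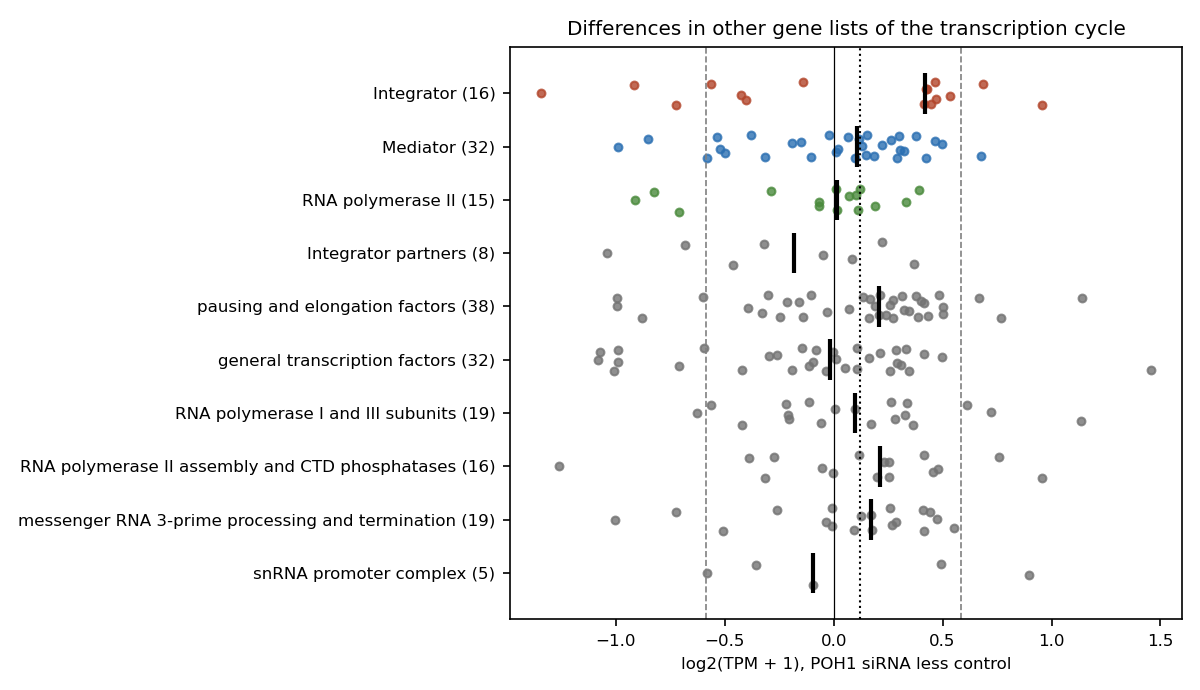
Difference in log2(TPM + 1), POH1 siRNA less control, with 1 point per measured gene (number in brackets), for the 3 complexes and 7 other lists; points are shifted vertically for visibility, thick bars are medians, the dotted line is the median of all tested genes (0.12) and the dashed lines mark 1.5-fold. Integrator has the highest median, 0.42, and its widest gap, picked from these values, lies between -0.14 and 0.41.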

How the data were processed

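RNA of PC3 cells was sequenced from 1 library per group. Per the labels' protocols, libraries were made from Trizol RNA with an mRNA kit, and per the submitters' processing notes CASAVA, HISAT2 and build hg19 were used; the sources used here do not give versions, annotation, strand use or read depth. The authors deposited TPM per Ensembl gene, with column sums of 999955 and 999968. TPM is relative, so abundant transcripts shift all others.

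Symbols were found for 57392 of 58174 identifiers. Gene types, GC content (the median over transcripts) and exon overlap came from GENCODE release 29, which annotates GRCh38, so no hg19 coordinates are printed. GC adjustment used a running median over 501 genes of 5 TPM or more. Calculations were made in Python 3.11.15 with pandas 2.3.3 and tested on simulated data. Members, lists and modules were chosen with earlier results of these data known. Named singly were members past 1.5-fold, the highest and lowest levels, catalytic subunits and paralogues, and up to 6 genes per list; the other members were added to give each module in full. Some genes that this rule names are left out of the text.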

Additional observations from a re-analysis of the deposited data

How the results depend on the processing

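No paired analysis was possible because each group held 1 library, and for the same reason no library could be left out. For the 11 called members, 86 pairs of a member and an alternative could be computed (INTS2 and INTS6L fall below the 5 TPM filter). None changed sign, but a pseudocount or a filter cannot change the sign of a difference. Median and trimmed mean scaling shifted differences by far less than the 1.5-fold limit, so they could not reverse a called member either. The kept signs under these settings therefore say nothing about these genes. All 11 stayed past 1.5-fold with a pseudocount of 0.1, and 8 with a pseudocount of 5. Under median or trimmed mean scaling 9 did, and 5 did after GC adjustment. Median scaling lowered differences by about 0.14 and trimmed mean scaling by 0.13 on the log2 scale. The Integrator median was 0.28 with a pseudocount of 5, 0.30 and 0.31 under median and trimmed mean scaling, and 0.28 after GC adjustment. The Mediator median changed sign, to -0.025 and -0.014, under those scalings. The RNA polymerase II median became -0.12 and -0.11 under them, -0.056 without mitochondrial and the 50 most abundant genes, -0.069 after GC adjustment and -0.025 without members that share exons or have copies. Integrator held 1 higher member with a pseudocount of 5, with a filter at 5 TPM, under either scaling and without members that share exons or have copies, and 4 higher and 1 lower after GC adjustment. Mediator held 0 higher members with a pseudocount of 5, under either scaling and without such members, and 3 after GC adjustment. Its lower members numbered 1 with a pseudocount of 5 and after GC adjustment, and 6 under either scaling and without the most abundant genes. Over all genes in these settings, 4.45% were lower with a pseudocount of 5, 5.18% after GC adjustment, 12.3% and 12.0% under median and trimmed mean scaling and 11.8% without the most abundant genes, against 8.88% as deposited. Higher calls over all genes moved as well, from 10.2% as deposited. They were 4.24% with a pseudocount of 5, 9.41% with a filter at 5 TPM and 12.6% after GC adjustment. Under median and trimmed mean scaling they were 6.40% and 6.68%. RNA polymerase II held 1 lower member after GC adjustment. The cause was not tested.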
